A study of Mus musculus with 10 samples.

Results

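The genes described here encode 8 RNA-binding proteins that shorten the life of cytokine mRNAs in macrophages. They were chosen by name as members of 3 gene families, with earlier results of these data known, and make up 8 of the 55573 genes in the table. The tristetraprolin (TTP) family is given by Zfp36, Zfp36l1 and Zfp36l2, the Regnase family by Zc3h12a, Zc3h12c and Zc3h12d, and the Roquin family by Rc3h1 and Rc3h2. The question was how the mRNA of each factor responded when macrophages were exposed to ligands of TLR7, an endosomal receptor for single-stranded RNA and guanine nucleosides.

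RNA was sequenced from bone marrow–derived macrophages (BMDMs), which were wild-type cells of female C57BL/6 mice grown in MCSF, the growth factor that drives macrophage differentiation. All groups were harvested at 4 hours and comprised 2 libraries each, 10 libraries in all. Cells were given vehicle, 5 μg polyU, PNPi+dG/rG or both (labelled PNPi+dG/rG+polyU), here called the combination. A further group had 1 ng/mL R848. PolyU is a uridine homopolymer given in complex with the lipid DOTAP. PNPi+dG/rG combined 1 μM ulodesine, an inhibitor of the guanosine-degrading enzyme PNP, with its substrates deoxyguanosine (dG) and guanosine (rG) at 5 μM each. R848 (resiquimod) is a synthetic small-molecule TLR7 ligand. The 2 libraries of a group are named as biological replicates in the labels, which do not say whether they came from separate mice, and p-values therefore measure only the spread between these libraries.

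Proteins of the TTP family bind AU-rich elements in 3′ untranslated regions (UTRs), whose core is the heptamer TATTTAT, and recruit the CCR4-NOT complex, which removes the poly(A) tail. Regnase proteins are endonucleases that cut stem-loops in mRNAs such as Il6, Il12b and Nfkbiz, and Roquin proteins bind similar stem-loops and recruit deadenylation and decapping enzymes. In macrophages, TTP and Regnase-1 (encoded by Zc3h12a) are known to be induced by TLR signaling and to limit the cytokine response, and both are themselves controlled by phosphorylation or protein destruction, which mRNA levels do not show.

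Values are CPM, which are read counts scaled by the library's total of reads on genes, and depth ran from 14128124 to 38392591 reads on genes per library, so that 3 reads correspond to 0.0781 to 0.212 CPM. The least abundant member value was 9.99 CPM, well above this floor. All 8 macrophage markers on a fixed list, among them Adgre1 and Csf1r, were at or above 1 CPM in every group. The 5 fibroblast markers on the same list summed to between 0.393 and 5.00 CPM in the vehicle, polyU, PNPi+dG/rG and combination libraries and to 132.9 and 140.9 CPM in the R848 libraries, the only group with all 5 at or above 1 CPM in both libraries. Pdgfra was at 0 in vehicle. The 4 endothelial markers summed to between 207.4 and 245.9 CPM without stimulation or with a single agent, 143.0 and 143.4 with the combination, and 64.5 and 69.8 with R848. Neutrophil markers summed to 23.4 CPM at most (with R848, Ly6g at 0), T cell markers to 8.82, and B cell, dendritic cell and epithelial markers to under 1 CPM each. The part of these markers in the results was not tested. In bulk RNA, fewer cells of a type and less RNA per cell cannot be told apart.

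AU-rich elements, through which the TTP family acts, are shown because several decay factor mRNAs carry the same element as their targets. For each 3′ UTR below, the 30-base window with the most copies of TATTTAT is printed 5′ to 3′ on the strand of the gene, with the heptamer in capitals. Coordinates are of GRCm38, and the Tnf window is given for comparison as an mRNA that TTP is known to bind.
Zfp36, chr7:28376958-28376987, minus strand: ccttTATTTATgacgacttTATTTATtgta
Zfp36l1, chr12:80108428-80108457, minus strand: atttaacttatcaaaacgTATTTATtgcca
Zfp36l2, chr17:84184914-84184943, minus strand: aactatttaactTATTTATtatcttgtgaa
Zc3h12c, chr9:52114862-52114891, minus strand: tgctataatcatTATTTATaggaacaaaga
Tnf, chr17:35199677-35199706, minus strand: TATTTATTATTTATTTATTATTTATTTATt
The Zfp36 3′ UTR, with 774 bases, held 3 copies of the heptamer, and those of Zfp36l1 (1835 bases) and Zfp36l2 (1822 bases) held 3 each. At least 1 copy was found in 30.8% of the 11102 tested genes with an annotated 3′ UTR, and in 21.3%, 38.5% and 38.3% of genes with a 3′ UTR of similar length to those of Zfp36, Zfp36l1 and Zfp36l2. Zc3h12c held 2 copies, Rc3h1 2 and Rc3h2 3, in UTRs long enough that 59.9%, 74.8% and 67.3% of genes of similar length held at least 1. Zc3h12a and Zc3h12d held none. Tnf held 8 copies in 764 bases, Il10 4, Il6 and Il12b 1 each and Nfkbiz none. A heptamer match is a description of the sequence and not a measured binding site.

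Promoter sequence was taken from RefSeq (GRCm38.p6) for 7 of the 8 members, all but Zfp36l2, and 250 bases before each start were searched on both strands for 8 motifs. The Zfp36 window held a CArG box, the sequence bound by serum response factor, 58 to 49 bases before the start, and an EGR motif (GCGNGGGCG) 105 to 97 bases before it. The CArG box occurred in 1.47% of 32817 promoters and the EGR motif in 4.7%. Zfp36l1 held an AP-1 motif (TGANTCA, in 6.75% of promoters) and a TATA motif (TATAAA, in 12.4%), and Rc3h1 held an AP-1 motif. Windows of Zfp36 and Zfp36l1 are shown because these genes, of the same family, moved in opposite directions. Any link between a motif and the direction was not tested. Rc3h1, which also held the AP-1 motif, rose 1.39-fold with the combination, while Zfp36l1 fell. The motif is in capitals.
Zfp36, CArG box, chr7:28379267-28379296, minus strand: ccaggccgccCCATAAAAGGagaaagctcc
Zfp36, EGR motif, chr7:28379315-28379344, minus strand: cgagctacgccGCGGGGGCGcgtcccggaa
Zfp36l1, AP-1 motif, chr12:80113125-80113154, minus strand: tgaccgcatggcTGATTCAacctcagtgtc
No NF-κB consensus (in 3.9% of promoters), CRE (TGACGTCA, 1.55%), PU.1 core (GAGGAAGT, 2.44%) or ISRE core (a pair of GAAA tetramers 2 bases apart, 2.97%) was found in the 8 windows of these 7 members (Zc3h12c has 2 annotated starts), which says only that these letters are not within 250 bases of the annotated starts.

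The combination exchanged one set of decay factor mRNAs for another. Zfp36, Zc3h12a and Zc3h12c rose 7.68-fold, 10.5-fold and 9.02-fold over vehicle, while Zfp36l1, Zfp36l2 and Zc3h12d fell 5.15-fold, 20.5-fold and 3.69-fold. Rc3h1 and Rc3h2 rose by 1.39-fold and 1.24-fold. A gene passed the test at an adjusted p under 0.05 (limma, Benjamini-Hochberg over 11978 tested genes) and was called if it also changed at least 2-fold. All 8 members passed the filter on low values and were tested. Against vehicle, 3 members were called higher and 3 lower with the combination, where 8.12% of all tested genes were called higher and 14.3% lower. R848 gave 3 members called higher and 1 lower, against 8.89% and 30.3% of tested genes. PolyU gave 1 higher and 0 lower, against 3.21% and 0.776%, and PNPi+dG/rG gave 0 of either, against 0.0668% and 0.00835%. Of the 8 members, 5 had an unadjusted p under 0.05 in that last comparison, and 1, Zc3h12a, passed the adjusted threshold. Of all 11978 tested genes, 1076 and 96 did so. All 4 comparisons use the same 2 vehicle libraries.

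**Figure D1:**
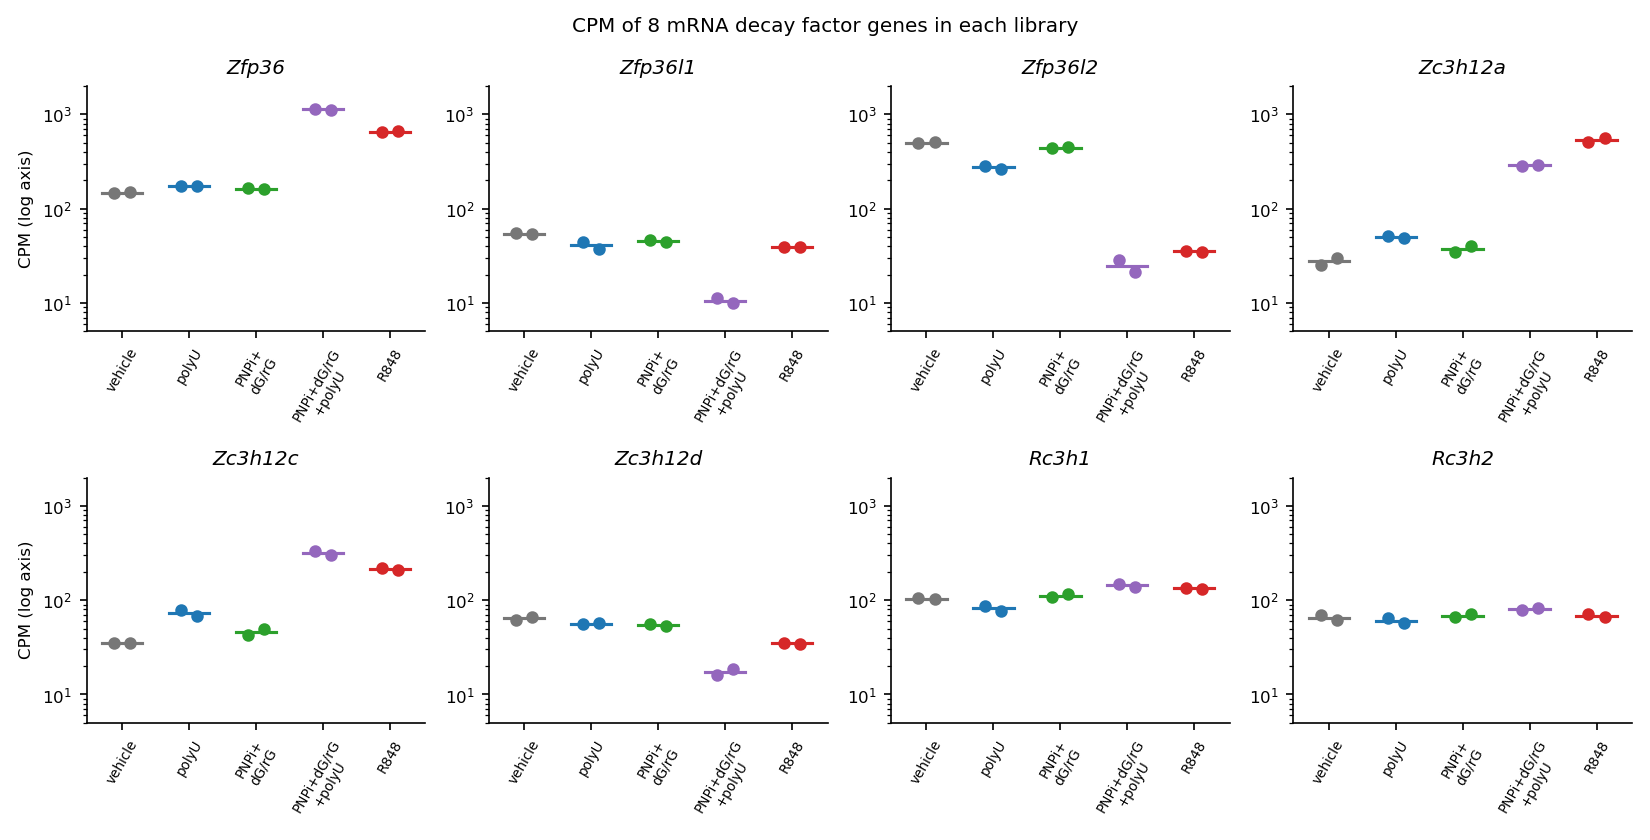
CPM of the 8 genes (log axis) in each of the 10 libraries, by group. Each point is 1 library and each line the mean of 2. Zfp36, Zc3h12a and Zc3h12c are highest with the combination and R848, Zfp36l2 is lowest there, and Zfp36l1 and Zc3h12d are lowest with the combination.

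CPM is a share of the library, and strongly induced genes lower the share of the others. The median log2 fold change of all tested genes was −0.22 with the combination and −0.50 with R848, but 0.02 with polyU and with PNPi+dG/rG. When each library was centred on its median, called genes divided into 1192 higher and 1245 lower with the combination, in place of 973 and 1712, and into 1792 and 2107 with R848, in place of 1065 and 3633. The median over the 8 members was 0.39 and 0.21 in these comparisons, with members far apart on both sides. Relative to the median gene, log2 fold changes with the combination were 3.15 for Zfp36, 3.60 for Zc3h12a, 3.38 for Zc3h12c, −2.15 for Zfp36l1, −4.14 for Zfp36l2 and −1.67 for Zc3h12d, so that these 6 kept their direction and stayed past 2-fold.

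**Figure D2:**
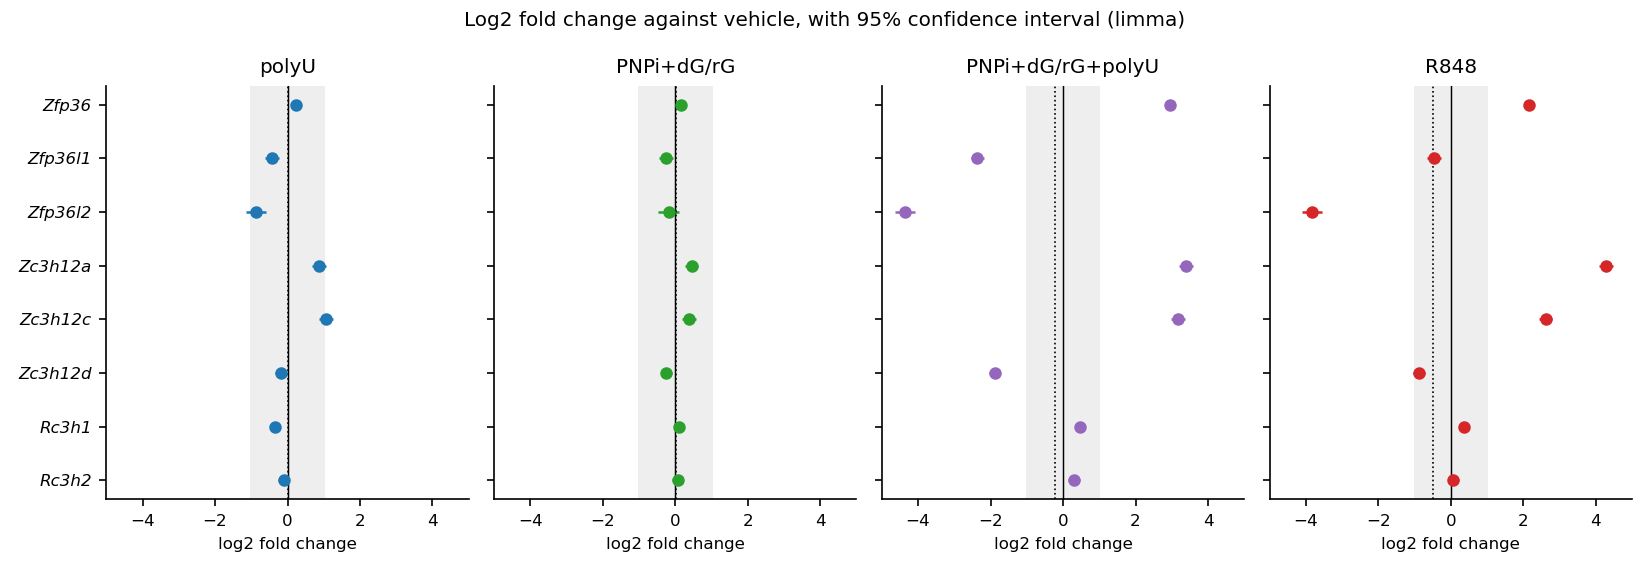
Log2 fold change of each gene against vehicle in the 4 treated groups. Points are limma estimates from 2 libraries a group, bars are 95% confidence intervals, the shaded band spans less than 2-fold and the dotted line marks the median of all tested genes, at −0.22 with the combination and −0.50 with R848. Outside the band lie 1 gene with polyU, 0 with PNPi+dG/rG, 6 with the combination and 4 with R848.

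Zfp36 encodes TTP, the founding member of its family and the factor known to destabilize Tnf mRNA. The gene lies at chr7:28376784-28380253 on the minus strand (GRCm38), and its 3′ UTR heptamers were shown above. It measured 145.1 and 149.7 CPM in vehicle, 175.0 and 175.1 in polyU, and 163.9 and 162.0 in PNPi+dG/rG. It reached 1144 and 1121 CPM with the combination and 643.2 and 663.5 with R848. The libraries of the last 2 groups lay far above all others, and those of the combination above those of R848. In log2 fold change this was 2.94 ± 0.04 (SE; adjusted p = 3.54e-17) with the combination and 2.15 ± 0.04 (adjusted p = 1.43e-16) with R848. PolyU raised Zfp36 by a log2 fold change of 0.25 (adjusted p = 1.37e-04), whereas PNPi+dG/rG gave 0.14 (95% CI 0.06 to 0.23, adjusted p = 0.143). The combination exceeded R848 by 0.79 on the log2 scale (adjusted p = 8.98e-11), and by 0.41 with libraries centred. In the order of groups, the differences between polyU and PNPi+dG/rG (adjusted p = 0.0533) and between PNPi+dG/rG and vehicle missed the threshold. The antisense gene Gm44710, which overlaps Zfp36 exons on the other strand, was at 0.50 to 1.99 CPM.

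Zfp36l2, a paralog best known from blood cell development, went the opposite way and was the member with the largest decrease. The gene lies at chr17:84183931-84187947 on the minus strand. It measured 496.6 and 507.7 CPM in vehicle, 437.5 and 447.2 in PNPi+dG/rG, and 285.0 and 265.5 in polyU. With the combination it measured 28.5 and 21.1 CPM, and with R848 35.8 and 35.1 CPM. These 4 libraries did not overlap any other, and polyU lay between them and vehicle. The log2 fold change was −4.36 ± 0.12 (SE; adjusted p = 8.42e-09) with the combination, −3.82 ± 0.12 (adjusted p = 1.13e-08) with R848 and −0.87 ± 0.12 (adjusted p = 7.73e-04) with polyU. PNPi+dG/rG gave −0.18 (95% CI −0.46 to 0.10, adjusted p = 0.751). The level was 1.45-fold lower with the combination than with R848 (adjusted p = 0.00460). All neighbouring groups in the order of levels differed, except vehicle and PNPi+dG/rG.

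Zfp36l1, the third member of the family, separated the combination from R848. The gene lies at chr12:80107754-80113013 on the minus strand. It measured 55.1 and 53.8 CPM in vehicle, 46.9 and 44.5 in PNPi+dG/rG, 44.6 and 37.0 in polyU, and 39.7 and 39.3 in R848. With the combination it fell to 11.2 and 9.99 CPM, below every other library. Its log2 fold change was −2.36 ± 0.09 (SE; adjusted p = 1.21e-12) against vehicle and −1.90 ± 0.09 (adjusted p = 3.79e-11) against R848. With R848 it was −0.46 (adjusted p = 1.65e-04) on deposited CPM but 0.13 (adjusted p = 0.163) with libraries centred on their median, so no direction is given for R848. PolyU lowered Zfp36l1 by 1.34-fold (adjusted p = 0.00129). Among vehicle, PNPi+dG/rG, polyU and R848, neighbours in the order of levels did not differ at this threshold.

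Per kilobase of transcript, these changes turned the family from mostly Zfp36l2 to nearly all Zfp36. Zfp36l2 made up 66.6% and 66.7% of the family's CPM per kb in the vehicle libraries, 51.0% and 50.0% in polyU, 62.5% and 63.5% in PNPi+dG/rG, 1.92% and 1.45% in the combination and 4.00% and 3.81% in R848. Zfp36 made up 24.6% and 24.9% in vehicle, 39.6% and 41.7% in polyU, 97.2% and 97.7% in the combination and 90.8% and 91.1% in R848. The ratio of Zfp36 to Zfp36l2 within a library, which no scaling of libraries changes, was 0.370 and 0.373 in vehicle, 0.777 and 0.834 in polyU, 0.474 and 0.458 in PNPi+dG/rG, 50.7 and 67.2 in the combination and 22.7 and 23.9 in R848. The ratio thus did not overlap between any of the 5 groups. The summed family went from 211.1 and 215.5 CPM per kb in vehicle to 158.4 and 150.4 in polyU, 421.7 and 410.9 in the combination and 254.0 and 260.9 in R848. Ranked by CPM per kb among 21853 genes, Zfp36l2 went from place 336 in vehicle to 6220 with the combination, and Zfp36 from place 1186 to 112.

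**Figure D3:**
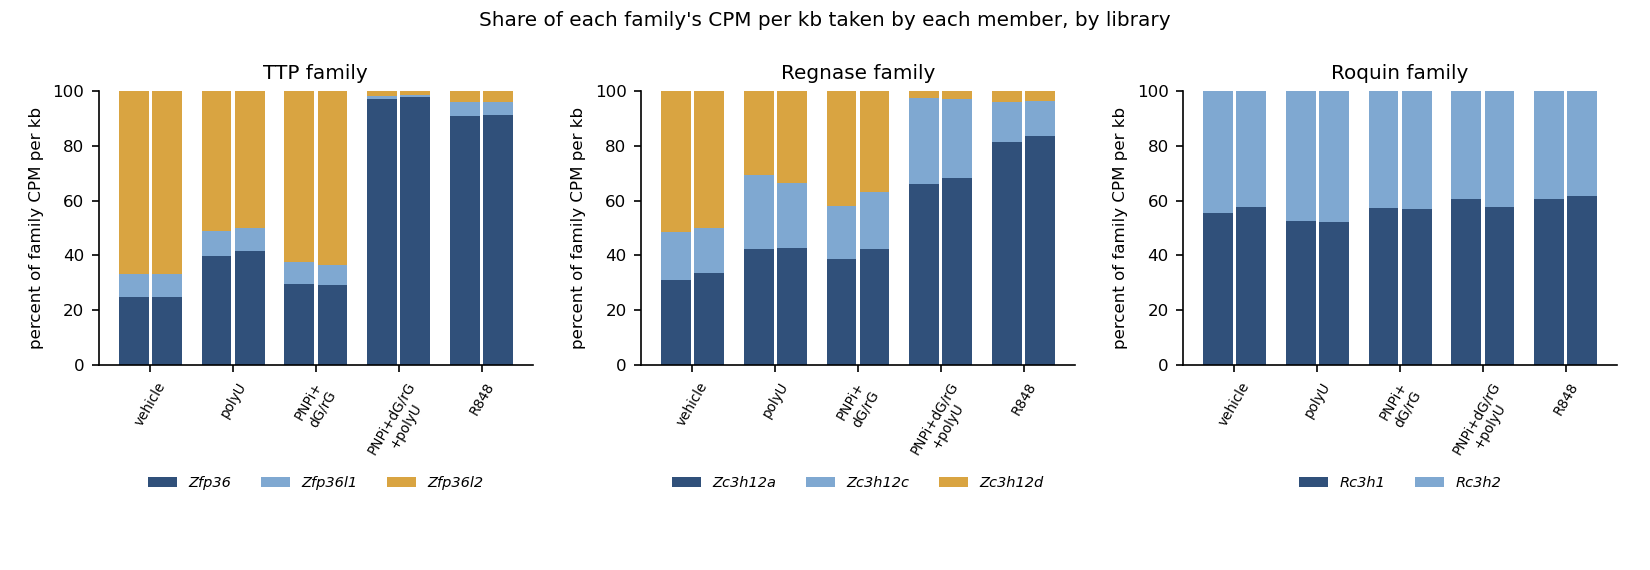
Percent of each family's summed CPM per kb of transcript taken by each member, 1 bar per library and 2 bars per group. Zfp36l2 holds 66.6% and 66.7% of its family in vehicle and under 5% with the combination and R848, and Zc3h12d goes from 51.4% and 50.1% of its family to under 4% in these groups.

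Zc3h12a encodes Regnase-1, the endonuclease known to destroy Il6 and Il12b mRNA. The gene lies at chr4:125118423-125127840 on the minus strand. It measured 25.3 and 29.8 CPM in vehicle, 34.6 and 40.7 in PNPi+dG/rG, 51.4 and 49.3 in polyU, 283.6 and 291.9 in the combination and 506.8 and 557.8 in R848. The libraries of no 2 groups overlapped, and R848 stood highest. Its log2 fold change was 4.28 ± 0.09 (SE; adjusted p = 6.53e-14) with R848, 3.39 ± 0.09 (adjusted p = 1.44e-12) with the combination and 0.87 ± 0.09 (adjusted p = 5.73e-06) with polyU. R848 exceeded the combination by 1.85-fold (adjusted p = 1.36e-06), and by 1.27 on the log2 scale with libraries centred. Zc3h12a was also the only member to pass the test with PNPi+dG/rG alone, at a log2 fold change of 0.45 ± 0.09 (adjusted p = 0.0351). That call did not hold under several alternatives, with adjusted p = 0.367 without the trend and robust estimation of the variance and adjusted p = 0.307 without PNPi+dG/rG replicate 2.

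Zc3h12c, which encodes Regnase-3, rose with the same treatments in another order. The gene lies at chr9:52111344-52168572 on the minus strand. It measured 35.0 and 35.2 CPM in vehicle, 42.4 and 48.9 in PNPi+dG/rG, 79.7 and 67.4 in polyU, 332.5 and 301.0 in the combination and 221.8 and 208.7 in R848. Here the combination stood above R848, and no 2 groups overlapped. The log2 fold change was 3.17 ± 0.08 (SE; adjusted p = 1.42e-12) with the combination and 2.62 ± 0.08 (adjusted p = 5.25e-12) with R848. The difference between them, 0.56 on the log2 scale (adjusted p = 6.68e-05), fell to 0.17 (adjusted p = 0.0810) with libraries centred. With polyU alone Zc3h12c was the only member called, at 2.09-fold (adjusted p = 6.26e-07). Without polyU replicate 1 its log2 fold change was 0.94, below 2-fold, and no member was then called. PNPi+dG/rG gave 0.38 (95% CI 0.19 to 0.56, adjusted p = 0.0737).

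Zc3h12d, which encodes Regnase-4, fell. The gene lies at chr10:7832470-7870396 on the plus strand. It measured 62.2 and 65.8 CPM in vehicle, 55.3 and 57.3 in polyU, 55.5 and 52.8 in PNPi+dG/rG, 35.5 and 34.3 in R848 and 16.2 and 18.5 in the combination. The combination libraries were the lowest and those of R848 lay between them and the rest. The log2 fold change was −1.89 ± 0.07 (SE; adjusted p = 2.17e-12) with the combination and −0.87 ± 0.07 (adjusted p = 1.78e-08) with R848, the latter −0.28 (adjusted p = 0.00300) with libraries centred. The difference between these groups was −1.39 with libraries centred. On deposited CPM it was −1.01, or 2.01-fold, and so only just past the 2-fold limit. It was −0.92 without combination replicate 1 and −0.99 without R848 replicate 1, where Zfp36l1 was then the only member called. Among vehicle, polyU and PNPi+dG/rG, neighbours in the order of levels did not differ at this threshold.

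In CPM per kb, Zc3h12d was the most abundant Regnase mRNA in vehicle, at 51.4% and 50.1% of the family, with Zc3h12a at 31.1% and 33.7%. With the combination the share of Zc3h12d was 2.54% and 2.92%, that of Zc3h12a 66.0% and 68.4% and that of Zc3h12c 31.5% and 28.7%. With R848, Zc3h12a held 81.6% and 83.8% and Zc3h12c 14.5% and 12.8%. The family sum rose from 29.5 and 32.1 CPM per kb in vehicle to 156.1 and 155.0 with the combination and 225.4 and 241.7 with R848. The ratio of Zc3h12a to Zc3h12d within a library was 0.605 and 0.672 in vehicle, 1.38 and 1.28 in polyU, 0.925 and 1.15 in PNPi+dG/rG, 26.0 and 23.4 in the combination and 21.2 and 24.1 in R848. On this ratio the last 2 groups overlapped, while on the ratio of Zc3h12c to Zc3h12d they did not, at 12.4 and 9.84 with the combination and 3.78 and 3.68 with R848.

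The Roquin genes changed least of the 8 with the combination. Rc3h1, which encodes Roquin-1, lies at chr1:160906418-160974978 on the plus strand. It measured 105.9 and 102.3 CPM in vehicle, 87.8 and 76.0 in polyU, 109.2 and 115.0 in PNPi+dG/rG, 150.1 and 139.6 in the combination and 134.8 and 131.5 in R848. PolyU was the lowest group, and the combination and R848 were the highest. Log2 fold changes were −0.35 ± 0.06 (SE; adjusted p = 4.69e-04) with polyU, 0.48 ± 0.06 (adjusted p = 7.65e-06) with the combination and 0.36 ± 0.06 (adjusted p = 1.02e-04) with R848. The difference between the combination and R848 was 0.12 (95% CI −0.02 to 0.26, adjusted p = 0.106) on deposited CPM and −0.26 (adjusted p = 0.00149) with libraries centred, so its direction depends on the scaling.

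Rc3h2, which encodes Roquin-2, lies at chr2:37370069-37422903 on the minus strand. It measured 69.5 and 61.5 CPM in vehicle, 64.8 and 56.9 in polyU, 66.4 and 70.6 in PNPi+dG/rG, 79.2 and 82.9 in the combination and 71.4 and 66.0 in R848. On deposited CPM, the combination libraries alone did not overlap any other group. The log2 fold change was 0.31 ± 0.08 (SE; adjusted p = 0.00179) in that group, −0.11 (95% CI −0.27 to 0.05) with polyU, 0.07 (95% CI −0.09 to 0.23) with PNPi+dG/rG and 0.07 (95% CI −0.09 to 0.23) with R848. With libraries centred, the R848 value was 0.66 (adjusted p = 6.88e-07) and the combination value 0.52. The difference between the combination and R848 was 0.24 on deposited CPM and −0.14 with libraries centred, so its direction depends on the scaling. Rc3h1 made up between 52.1% and 61.8% of the Roquin CPM per kb in every library, a narrower range than within the other 2 families.

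The comparison of the combination with polyU asks what the guanine nucleosides and PNP inhibition added to the RNA ligand. All 8 members passed the test, as did 7582 of all 11978 tested genes. Zfp36, Zc3h12a and Zc3h12c were called higher, at 6.47-fold, 5.72-fold and 4.32-fold, and Zfp36l2, Zfp36l1 and Zc3h12d lower, at 11.2-fold, 3.84-fold and 3.25-fold. Of all tested genes 5.29% were called higher and 10.2% lower, or 829 and 755 genes with libraries centred in place of 634 and 1219. Rc3h1 rose 1.77-fold (adjusted p = 2.09e-08) and Rc3h2 1.33-fold (adjusted p = 1.83e-04). Rc3h1 passed 2-fold with libraries centred, at a log2 fold change of 1.08.

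The effect of PNPi+dG/rG differed between cells with and without polyU for 7 members under every alternative run, and for Rc3h2 on the fit reported here. The interaction, which is the log2 fold change on adding PNPi+dG/rG in the presence of polyU minus that in its absence, was 2.55 for Zfp36 (95% CI 2.43 to 2.67), 2.07 for Zc3h12a (1.80 to 2.33) and 1.73 for Zc3h12c (1.47 to 1.99). It was −3.30 for Zfp36l2 (−3.70 to −2.91), −1.69 for Zfp36l1 (−1.96 to −1.43) and −1.46 for Zc3h12d (−1.68 to −1.24). For Rc3h1 it was 0.72 (adjusted p = 1.02e-05) and for Rc3h2 0.35 (adjusted p = 0.0129). The Rc3h2 value missed the threshold in 4 of 10 fits that each left out a library (vehicle replicate 1, PNPi+dG/rG replicate 1, polyU replicate 2 or combination replicate 2, adjusted p up to 0.0686) and with plain eBayes (adjusted p = 0.0675). Thus 3 members were called higher and 3 lower, where 4.55% and 8.87% of tested genes were, or 751 and 567 genes with libraries centred in place of 545 and 1062. Rc3h1 was also called with libraries centred, at 1.01. The median over all tested genes was −0.27, and 6069 of these 11978 genes passed at the adjusted p alone. For Zfp36 and Zfp36l2 the response to both agents was therefore larger than the sum of the separate log2 responses.

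**Figure D4:**
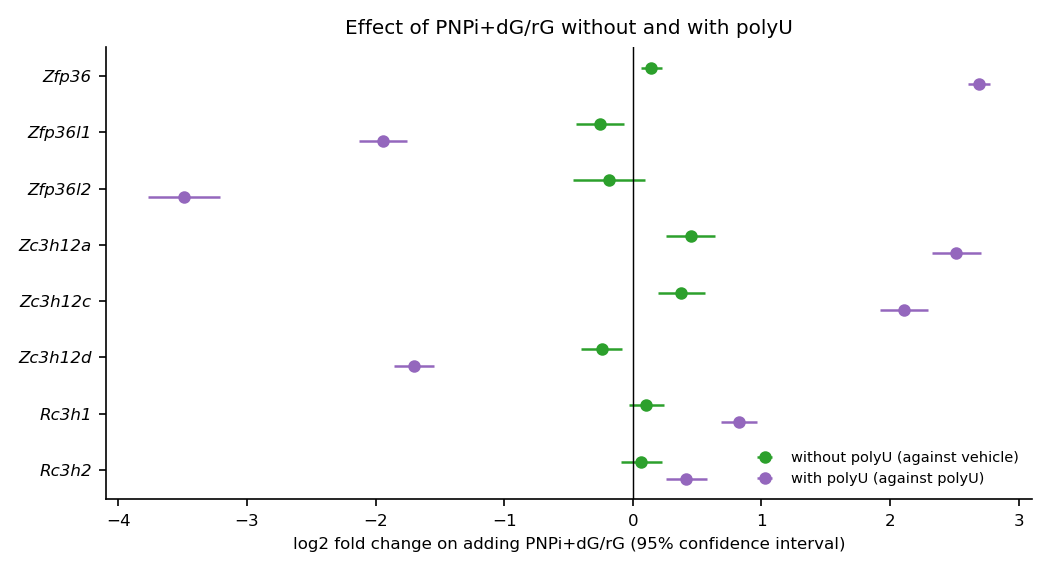
Log2 fold change of each gene on adding PNPi+dG/rG without polyU (green, against vehicle) and with polyU (purple, against polyU), with 95% confidence intervals from limma. Without polyU all values lie between −0.25 and 0.45, and with polyU they run from −3.49 for Zfp36l2 to 2.69 for Zfp36.

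The combination and R848 were set side by side to compare endogenous and synthetic TLR7 ligands. Against R848, 0 members were called higher and 2 lower, Zfp36l1 and Zc3h12d, where 16.9% of tested genes were called higher and 3.86% lower, or 1194 and 852 genes with libraries centred in place of 2019 and 462. The median of all tested genes was 0.31. Zfp36, at 1.73-fold, and Zc3h12c, at 1.47-fold, were higher with the combination, and Zc3h12a and Zfp36l2 were lower, at 1.85-fold and 1.45-fold. With libraries centred, Zc3h12a was also called lower, at −1.27 on the log2 scale, and the Zc3h12c difference of 0.17 no longer passed (adjusted p = 0.0810). Single doses were used, so these differences hold for the doses given, and the R848 libraries carried the fibroblast markers described above.

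The decay machinery that these factors recruit gave few calls with the combination, where 8.12% of all tested genes were called higher and 14.3% lower. Among 17 tested genes of deadenylation (the CCR4-NOT, PAN2-PAN3 and PARN enzymes and their TOB/BTG adaptors), 1 was called higher and 2 lower, with a median log2 fold change of −0.18 beside −0.22 over all genes. The adaptor Btg2 rose by 2.11 on the log2 scale (adjusted p = 6.12e-12), while the deadenylase Cnot6l and the adaptor Tob1 had log2 fold changes of −1.78 (adjusted p = 1.48e-10) and −1.23 (adjusted p = 1.42e-05). With R848, 2 were called higher (Btg2 3.19, Btg1 1.55) and 4 lower (Tob1 −1.61, Cnot6l −1.54, Parn −1.48, Cnot10 −1.04), beside 8.89% and 30.3% of all tested genes. None of the 17 decapping genes, 14 tested genes of the RNA exosome and SKI complex or 8 genes of nonsense-mediated decay was called with the combination, where the medians were 0.00, −0.27 and −0.29. At the adjusted p alone, 13 deadenylation, 6 decapping, 11 exosome and 7 nonsense-mediated decay genes passed, at changes under 2-fold but for the 3 named. Of all 11978 tested genes, 8254 passed at that threshold with the combination. With libraries centred, the decapping enzyme gene Dcp2 was also called higher with the combination, at 1.07. R848 gave 4 decapping genes called lower, all Lsm subunits (Lsm2, Lsm5, Lsm6 and Lsm7), 5 exosome genes called lower (Exosc7, Exosc2, Dis3, Exosc5 and Exosc8) and 1 nonsense-mediated decay gene called lower (Upf3b). Beside the 30.3% of all tested genes called lower, these counts are no result about the lists. In these 3 lists the called R848 values lay between −1.02 and −1.44, the medians were −0.27, −0.77 and −0.29, and the median of all genes was −0.50. With libraries centred, 0 genes of these 3 lists were called with R848, and of the deadenylation genes called lower only Tob1 remained (−1.01). Exosc6 did not pass the filter. PolyU and PNPi+dG/rG gave 0 called genes in all 4 lists. Of all tested genes, polyU gave 3.21% called higher and 0.776% lower, and PNPi+dG/rG 0.0668% and 0.00835%. Beside these shares, the counts of 0 are no result about the lists.

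Other proteins that bind AU-rich elements or stem-loops gave 2 called genes of 8 tested, both higher, with the combination and with R848, and Zc3h12b, the remaining Regnase gene, did not pass the filter. Arid5a, which is known to protect Il6 mRNA from Regnase-1, had log2 fold changes of 1.01 with polyU, 3.31 with the combination and 2.80 with R848. N4bp1, an endonuclease related to the Regnases, had 1.83 and 2.73 in the latter 2. A further list held 12 genes of kinases, phosphatases, proteases and their partners that act on TTP or Regnase-1 directly or through other proteins. Among these 12 regulators, 4 were called higher and 2 lower with the combination. Of all tested genes, 8.12% were called higher and 14.3% lower with the combination, and 8.89% and 30.3% with R848. The 2 regulators called lower with the combination are near that share and are no result about the list. The protease subunit Malt1, which cleaves Regnase-1, rose by 2.99, the TTP kinase Mapkapk2 by 2.08, the p38 phosphatase Dusp1 by 2.08 and the Malt1 partner Bcl10 by 1.14. Map2k6 and Map2k3, kinases that activate p38, had log2 fold changes of −2.36 and −1.33. Map2k6 rested on few reads, with 3 and 9 in the combination libraries against 34 and 33 in vehicle, and was at −1.57 (adjusted p = 0.00125) without combination replicate 1. R848 gave 5 higher (Malt1 3.81, Mapkapk2 2.38, Dusp1 2.15, Bcl10 1.35 and Ikbkb 1.23) and 1 lower (Map2k6 −1.38), and with libraries centred 7 higher and 0 lower. PolyU and PNPi+dG/rG gave 0 called genes among these regulators, and Arid5a was the only binder called with polyU. Of all tested genes, 3.21% were called higher with polyU.

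**Figure D5:**
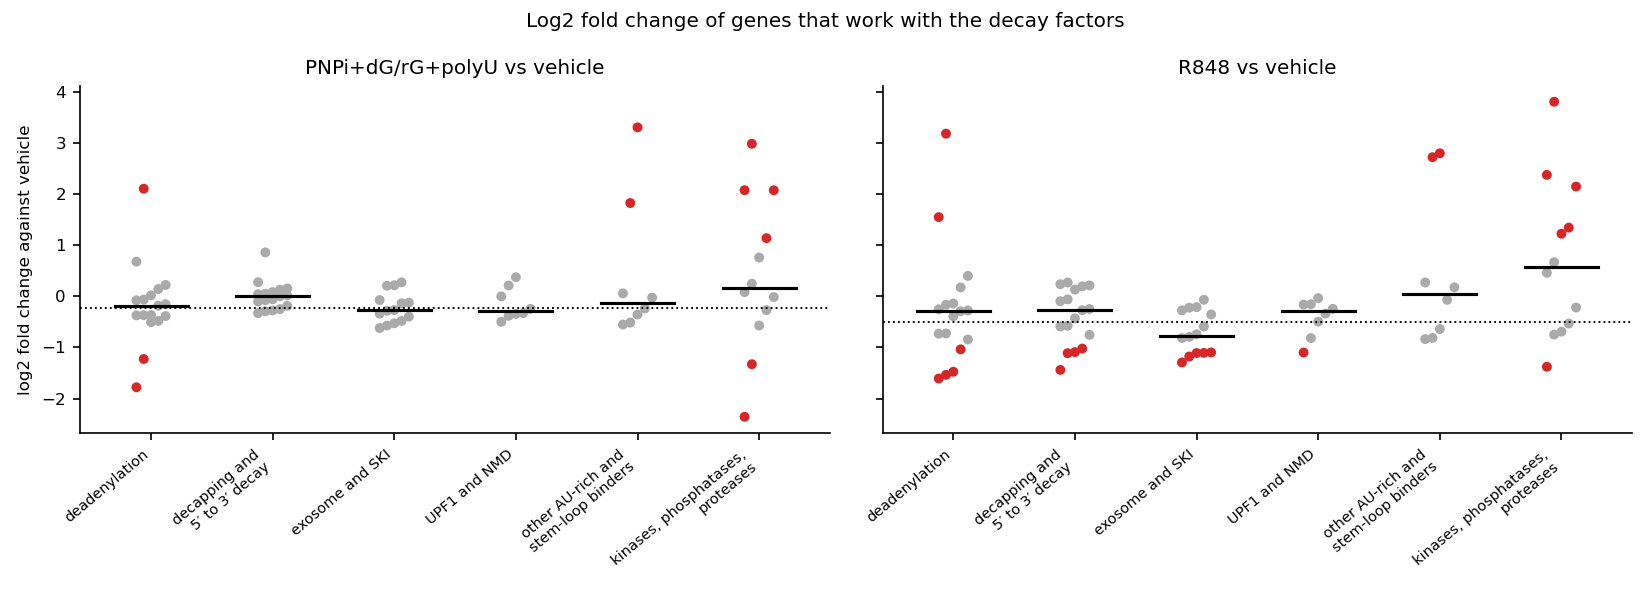
Log2 fold change against vehicle of the tested genes in 6 lists of decay machinery and regulators, with the combination (left) and R848 (right). Each point is 1 gene, red where called, black bars are list medians and the dotted line is the median of all tested genes. Malt1, Arid5a and Btg2 are among the highest points in both panels, and the exosome median is −0.27 on the left and −0.77 on the right.

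Many of the mRNAs that these factors are known to destroy were called higher with the combination and R848. Of 12 known TTP targets, 6 were called higher with polyU, 1 with PNPi+dG/rG (Cxcl1, log2 fold change 1.06), 10 with the combination and 11 with R848, and 0 were called lower in any of them. Of all tested genes 3.21%, 0.0668%, 8.12% and 8.89% were called higher in these comparisons. The 10 include Csf2, called at an adjusted p of 0.0471 from 8 and 11 reads against 0 in both vehicle libraries. Ccl2 was called in neither the combination (log2 fold change 0.84, adjusted p = 2.91e-05, and 1.05 and called with libraries centred) nor R848 (−0.50, adjusted p = 7.39e-04), the latter 0.10 (adjusted p = 0.332) with libraries centred. Csf2 and Il23a had at most 3 reads in each vehicle library. With values below 3 reads raised to that floor, the list medians were 1.10, 0.15, 5.87 and 5.81 on the log2 scale. Tnf measured 53.2 and 56.4 CPM in vehicle, 245.4 and 259.1 in polyU, 75.7 and 90.0 in PNPi+dG/rG, 3415 and 3154 in the combination and 2167 and 2063 in R848. Its log2 fold change was 2.20, 0.59, 5.91 and 5.27 in the 4 treated groups, and the interaction was 3.11 (adjusted p = 4.12e-10). Il10, an inhibitory cytokine that is also a TTP target, had log2 fold changes of 2.28 with polyU, −0.26 (adjusted p = 0.472) with PNPi+dG/rG, 5.84 with the combination and 5.78 with R848.

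Of 6 tested mRNAs known as Regnase or Roquin targets, 3 were called higher with polyU, 0 with PNPi+dG/rG and 4 each with the combination and R848. Of all tested genes 3.21%, 0.0668%, 8.12% and 8.89% were called higher in these comparisons. Tnf is counted in this list and also among the TTP targets. Icos and Calcr did not pass the filter. Of these 6, the 2 not called with the combination or R848 were Nfkbid and Tnfrsf4. Nfkbid was at −0.51 (adjusted p = 1.23e-04) with the combination and 0.34 (adjusted p = 0.00238) with R848. Tnfrsf4 was at −0.17 (adjusted p = 0.786) and −0.15 (adjusted p = 0.792). Il12b, a subunit of IL-12 and IL-23, measured 1.29 and 1.405 CPM in vehicle, 8.07 and 10.5 in polyU, 1.25 and 1.15 in PNPi+dG/rG, 1801 and 1846 in the combination and 956.4 and 954.4 in R848. Nfkbiz, which encodes the coactivator IκBζ, had log2 fold changes of 2.42 with polyU, 6.81 with the combination and 6.33 with R848. Il6 had 1 and 0 reads in the vehicle libraries and measured 76.4 and 87.4 CPM with the combination and 279.5 and 264.6 with R848. Against the floor of 3 reads per vehicle library this was at least 486-fold and at least 1615-fold higher.

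Each member was also described by the 3 genes whose log2 CPM followed it most closely over the 10 libraries, among 8454 genes whose mean was 10 CPM or more. The libraries form 5 groups, so these correlations mostly describe the order of 5 group levels, and they are given without a test. Zc3h12c was nearest to Tnf (Pearson r = 0.996), Stx11 (0.995) and Nfkbiz (0.994), and Zc3h12a to Ier3 (0.998), Nlrp3 and Jak2 (0.997 each). Zfp36 was nearest to Kif3c (0.998), Tshz1 (0.997) and Usp12 (0.996). Among the members that fell, Zfp36l2 was nearest to 6430548M08Rik, Klf10 and Zbtb4 (0.998 each), Zfp36l1 to Ptpn7 (0.995), Il16 and Tor4a (0.988 each), and Zc3h12d to Nfam1 (0.994), Irf2bp2 and Mtmr3. Rc3h1 was nearest to Brwd3 (0.996), Cep350 and Bcor. Rc3h2, whose level varied least, had the lowest values, with Zc2hc1a at 0.947, Fmr1 at 0.928 and Nufip2 at 0.911.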

How the data were processed

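The authors deposited 1 table of CPM, which are read counts per gene brought to a common library total, plus an offset of 0.0001 on each value. Reads of 50 bp came from a stranded mRNA kit, and per the methods were mapped with STAR and counted on Ensembl release 97 genes of GRCm38. The submitters' processing notes name STAR 2.27a and bcl2fastq 2.19.1.403. How reads on overlapping genes were counted is not given in the sources used here. Depth was recovered from the step between low values after the offset was removed.

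limma 3.58.1 (R 4.3.3, statmod 1.5.0) was fitted to log2 of the deposited CPM, with all 5 groups together. It used eBayes with trend and robust estimation, for genes that reached 1 CPM in 2 or more libraries. The fit was checked on simulated data in which few genes were changed, in both directions. That check does not cover a shift of most genes like the one seen with R848. Alternatives were a further 0.1 or 1 CPM, other filters, centring, plain eBayes, fewer groups, a replicate block and leaving out each library. Gene positions, transcript lengths (the longest protein-coding transcript) and UTRs are those of GENCODE M21, and promoters those of RefSeq. Besides the members, genes were named as the 3 most alike to each, as called list genes with the largest change or in counts of 5 or fewer, or as 5 preset targets (Tnf, Il6, Il12b, Il10, Nfkbiz). Csf2, Il23a, Ccl2, Nfkbid and Tnfrsf4 were named after their values were seen. Members and lists were chosen with earlier results of these data known.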

Additional observations from a re-analysis of the deposited data

Results flagged for a closer look

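The effect of PNPi+dG/rG was tested for a difference between cells with and without polyU. All 8 genes passed that test (limma interaction, adjusted p under 0.05), as did 6069 of all 11978 tested genes. The difference, on the log2 scale, was 2.55 for Zfp36, 2.07 for Zc3h12a and 1.73 for Zc3h12c, and −3.30 for Zfp36l2, −1.69 for Zfp36l1 and −1.46 for Zc3h12d. For these 6 genes the effect with polyU had the sign of the effect without it and was larger. The difference was 0.72 for Rc3h1 and 0.35 for Rc3h2. The adjusted p for Rc3h2 was 0.0129, but 0.0675 with plain eBayes and up to 0.0686 on leaving out single libraries, where it missed the threshold in 4 of 10 fits. No group held enough libraries for a check of single libraries against the others of their group.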

How the results depend on the processing

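Of 1104 member values recomputed under 20 alternatives, 1064 kept their direction and side of the adjusted p threshold, including all 360 of Zfp36, Zfp36l1, Zfp36l2, Zc3h12a, Zc3h12c and Zc3h12d with the combination against vehicle, against polyU and in the interaction. Some alternatives, such as plain eBayes or leaving out a library of a group not compared, cannot change the fold change. There only the adjusted p could move, and a kept direction was fixed in advance. Direction reversed in 5 of the 1104 values. With libraries centred these were Zfp36l1 with R848 (0.13) and Rc3h1 (−0.26) and Rc3h2 (−0.14) in the combination against R848, and without vehicle replicate 2 Rc3h2 with PNPi+dG/rG (−0.021, up to 0.16 on leaving out others) and with R848 (−0.018, up to 0.16 on leaving out others). Centring shifts all genes of a comparison by the same amount, so the directions that reversed with libraries centred depend on the scaling. The cause of the other reversals was not tested.

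Members called in the combination against R848 numbered 1 with a further 1 CPM, where Zc3h12d was at −0.97, 3 with libraries centred, where Zc3h12a joined, and 1 to 2 when each library was left out. With polyU against vehicle they numbered 0 to 1. Genes called with PNPi+dG/rG, 9 in all, numbered 1 with a further 0.1 CPM, 0 with a further 1 CPM, 95 without the filter, 4 with a filter on the mean, 4 in a fit of only the groups compared and 2 to 29 when each library was left out (29 without vehicle replicate 1, 24 without vehicle replicate 2 and 2 without PNPi+dG/rG replicate 2). Genes called with polyU, 478 in all, numbered 303 with a further 1 CPM, 849 without the filter and 420 to 521 on leaving libraries out.

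Deviations from group means of same-numbered libraries had a median correlation of −0.02 (−0.29 to 0.11). The correlation was −0.29 for vehicle and PNPi+dG/rG and 0.11 for vehicle and polyU. Because pairs of groups differed in sign, the median does not decide whether replicate numbers pair the libraries. Under a replicate block, 478 genes were called for polyU, 10 for PNPi+dG/rG, 2679 for the combination and 4688 for R848, and the same number of members called in all 7 comparisons. Crossing the numbers of PNPi+dG/rG, an alternative chosen after seeing the data because vehicle and PNPi+dG/rG had the lowest correlation, gave 482, 9, 2691 and 4698. Without both R848 libraries, also chosen after seeing the data, all counts that could be made stayed within 1.5 times. A test on read counts was planned and not run. The values were tested as the CPM they were deposited as, although low values were whole reads once the offset was removed. With 2 libraries a group, a library alone in its arm is assumed to vary like the other groups.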
